A study of Homo sapiens with 6 samples.

Results

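Genes of autophagy and the lysosome were followed in U2OS cells, a human osteosarcoma line, after depletion of the zinc finger transcription factor E4F1. The 46 genes were taken by name, as 24 of the autophagy machinery and its cargo receptors, 19 of the lysosome (membrane proteins, hydrolases, an activator protein and the proton pump) and 3 MiT/TFE transcription factors, out of 58219 genes in the count tables. All 46 passed the filter on low counts. The study has 3 libraries of polyadenylated RNA from cells given a scramble shRNA and 3 from cells given an shRNA against E4F1. Every pool was infected for 24 h, then kept under puro selection for 48 h, and RNA was taken at 72 h, so viral infection and selection are common to both groups. The labels name 3 independent pools and give neither the hairpin sequences nor how many hairpins were used, and both groups come from the same cell line.

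Autophagy wraps cytoplasm in a double membrane, the autophagosome, and delivers it to the lysosome, where acid hydrolases degrade it. The ULK kinases start the process, a class III phosphatidylinositol 3-kinase complex marks the membrane, WIPI and ATG2 proteins and the scramblase ATG9A extend it, conjugating enzymes attach ATG8 proteins (the LC3 and GABARAP families) to its lipids, and receptors such as SQSTM1 tie cargo to ATG8. TFEB, TFE3 and MITF are kept out of the nucleus by mTORC1 signalling at the lysosome and, once released, activate many lysosomal and autophagy genes through the CLEAR element in their promoters.

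Reads assigned to genes numbered 14947085 to 16892139 per library. The targeted gene, E4F1, had 233, 286 and 297 reads in control libraries 1 to 3 and 51, 53 and 41 reads in E4F1 shRNA libraries 1 to 3. It was at 17.4 ± 1.76 CPM (read counts divided by the library's reads in genes, TMM-scaled, and expressed in the usual CPM unit, mean ± SD, n = 3) in control and 2.94 ± 0.384 CPM in E4F1 shRNA libraries, with no overlap. The 6 markers of mesenchymal and bone lineage cells (VIM, COL1A1, COL1A2, SPARC, RUNX2 and FN1) summed to 5685 to 5893 CPM in control and 5165 to 5372 CPM in E4F1 shRNA libraries, and 8 epithelial, blood and endothelial markers to 16.5 to 17.8 and 15.8 to 17.2 CPM, 1 of them at 0 in every library. Within that sum EPCAM was higher (log2 0.43, edgeR adjusted p = 0.0229) and CDH1 lower (log2 −0.41, edgeR adjusted p = 0.0442), each without overlap, at under 10 CPM in every library. Of the mesenchymal and bone markers, VIM (log2 −0.25, edgeR adjusted p = 0.00494) and COL1A1 (log2 −0.16, edgeR adjusted p = 0.0422) were lower. COL1A2, SPARC, RUNX2 and FN1 were not called, and COL1A2 was almost absent, at 0.77 CPM in control and 0.675 CPM in E4F1 shRNA libraries. A cell cycle score, the mean log2 CPM of 30 replication and mitosis genes relative to the 6 libraries, was −0.187, 0.047 and −0.305 in control libraries 1 to 3 and 0.186, 0.187 and 0.072 in E4F1 shRNA libraries 1 to 3. Control library 2 thus lay nearest to the E4F1 shRNA group on this score. The part of this score in the results below was not tested apart from a fit with it as a covariate. The p-values rest on the spread among pools of 1 cell line, and 3 libraries against 3 allow an exact permutation p of 0.1 at the smallest, so single genes were tested in the fit across all genes. These are bulk libraries, in which fewer cells of a kind and less RNA per cell cannot be told apart.

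MiT/TFE factors act through the CLEAR element, and the members' promoters that hold its core are shown here as possible sites. Binding was not measured, and the core alone does not show that a gene is a target of these factors. RefSeq promoters (GRCh38.p14, 250 bases before to 50 after the start) were found for 38 of the 46 genes, 49 promoters in all. The core, TCACGTGA, which reads the same on both strands, stood in 5 of 12 lysosomal promoters (41.7%), in 1 of 30 autophagy promoters (3.33%, the ATG3 promoter), in none of 7 promoters of the MiT/TFE genes and in 0.98% of all 35116 RefSeq promoters. The shorter E-box CACGTG, which the core contains, stood in 7 of the 12 lysosomal promoters (58.3%), 2 of the 30 autophagy promoters (6.67%) and 7.26% of all promoters. TGACGTAA, the site E4F1 binds in the adenovirus E4 promoter, was searched on both strands and was in no member's promoter and in 0.416% of all. The lines below give the 120 bases from 100 before to 20 after the start of each promoter that holds the core, 5′ to 3′ on the strand of the gene, with the core in capitals. They lie at chr13:113297139-113297258 (plus strand, LAMP1), chr19:7522524-7522643 (plus, MCOLN1), chr20:45891235-45891354 (plus, CTSA), chr17:80101481-80101600 (plus, GAA), chr16:67481138-67481257 (minus, ATP6V0D1) and chr3:112561943-112562062 (minus, ATG3) of GRCh38.p14.
LAMP1: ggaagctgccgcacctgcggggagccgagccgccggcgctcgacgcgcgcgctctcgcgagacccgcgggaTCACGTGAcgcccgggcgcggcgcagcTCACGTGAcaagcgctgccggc
MCOLN1: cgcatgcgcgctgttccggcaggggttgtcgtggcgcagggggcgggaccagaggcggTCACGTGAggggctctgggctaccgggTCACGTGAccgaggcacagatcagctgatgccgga
CTSA: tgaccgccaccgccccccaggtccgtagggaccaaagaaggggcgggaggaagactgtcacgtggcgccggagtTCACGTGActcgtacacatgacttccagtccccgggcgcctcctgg
GAA: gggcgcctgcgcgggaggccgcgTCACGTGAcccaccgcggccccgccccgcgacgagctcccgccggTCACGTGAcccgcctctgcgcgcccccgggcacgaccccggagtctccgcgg
ATP6V0D1: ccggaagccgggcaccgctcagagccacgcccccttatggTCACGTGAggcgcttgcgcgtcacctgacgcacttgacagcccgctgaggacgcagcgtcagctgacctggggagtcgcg
ATG3: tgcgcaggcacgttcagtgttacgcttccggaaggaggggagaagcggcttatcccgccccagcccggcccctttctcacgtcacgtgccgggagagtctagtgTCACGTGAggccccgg
LAMP1, MCOLN1 and GAA each carry the core at 2 places and the other 3 genes at 1.

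Of the 46 genes, 21 were lower and 3 were higher in E4F1 shRNA cells, and 22 did not pass the test (edgeR quasi-likelihood test, adjusted p below 0.05 over 15765 genes). The share called lower was 45.7%, against 14.4% of all genes tested, and the share called higher was 6.52%, also against 14.4%. Over all genes 28.9% were called in either direction. The 24 called members were also those whose 3 control and 3 E4F1 shRNA libraries did not overlap (52.2% of members, against 41.8% of all genes). The changes were small: the lower calls ranged from log2 −0.58 (ULK1) to −0.15 (LAMP1), the median over the 46 was −0.16, and the median over all genes was −0.0096. The members are more abundant than most genes, with a median average log2 CPM of 6.27 against 4.43 over all genes tested; the part of abundance in the share called was not tested. As a pattern by library, controls 1 and 3 were high and the E4F1 shRNA libraries low for most members, and control 2 was the lowest of the controls for 15 of the 21 genes called lower.

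**Figure D1:**
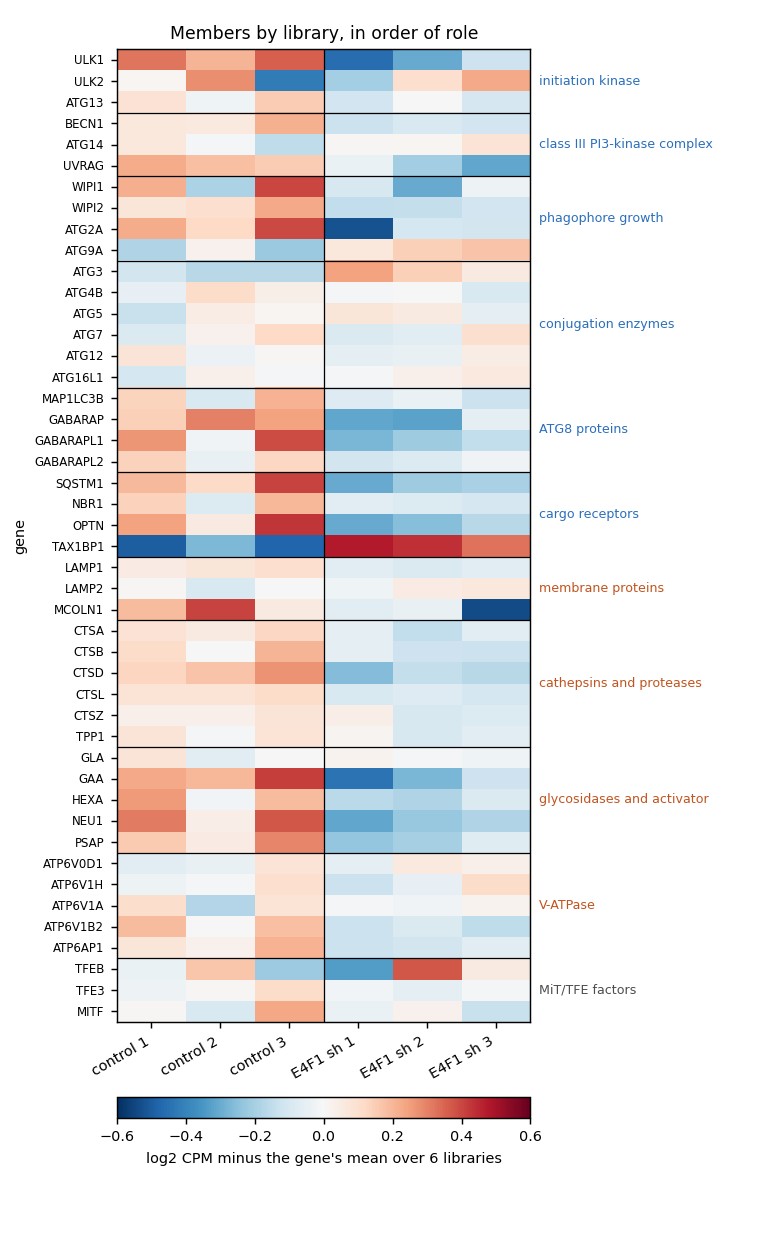
Colour gives the log2 CPM of each of the 46 genes (rows, ordered by role) in each of the 6 libraries (columns), minus the mean of that gene over the libraries. Most rows are red in the control columns and blue in the E4F1 shRNA columns, TAX1BP1 is the reverse, and control 2 is paler than controls 1 and 3 in many rows.

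Among the cargo receptors, which link ubiquitinated cargo to ATG8 proteins, SQSTM1 and OPTN fell while TAX1BP1 rose. SQSTM1 (p62; ENSG00000161011.19, GRCh38 chromosome 5, 179806398 to 179838078, plus strand) had 402, 380.2 and 464 CPM in control libraries 1 to 3 and 284, 303 and 306 CPM in E4F1 shRNA libraries 1 to 3. Every E4F1 shRNA library lay below every control, and control 3 was the highest (log2 −0.48, SE 0.066, edgeR adjusted p = 4.5e-05). OPTN, the optineurin gene, had 107, 93.8 and 122 CPM against 73.4, 75.8 and 80.5 CPM in the same order. All 3 E4F1 shRNA libraries lay below the lowest control, number 2 (107 ± 13.9 to 76.6 ± 3.62 CPM, SD, n = 3 each; log2 −0.49, SE 0.077, edgeR adjusted p = 0.000172). NBR1, a receptor related in domain layout to SQSTM1, had 164, 141 and 171 CPM against 143, 141 and 139 CPM. Control 2 lay within the range of the E4F1 shRNA libraries for NBR1, the groups overlapped, and the test was not passed (log2 −0.17, SE 0.064, edgeR adjusted p = 0.0517). Without control 2 the adjusted p of NBR1 was 0.00116 (log2 −0.24), and with a GC-content offset it was 0.0161.

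TAX1BP1, a receptor that also takes part in the control of NF-kB signalling, had the largest change of the 46. The gene (ENSG00000106052.13, GRCh38 chromosome 7, 27739331 to 27844564, plus strand) had 199.6, 233 and 202 CPM in control libraries 1 to 3 and 391, 382 and 352 CPM in E4F1 shRNA libraries 1 to 3. The lowest E4F1 shRNA library, number 3, lay far above the highest control, number 2. Its mean went from 212 ± 18.8 to 375 ± 20.3 CPM (SD, n = 3 each; log2 0.82, SE 0.064, edgeR adjusted p = 8.42e-08). Per kilobase of exon, SQSTM1 stood above TAX1BP1 in each control library, where the TAX1BP1 level divided by that of SQSTM1 was 0.415, 0.512 and 0.364. In E4F1 shRNA libraries the same ratio of levels was 1.15, 1.05 and 0.961, so that both receptors had near equal levels there. This ratio was chosen after the values were seen and was not tested.

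**Figure D2:**
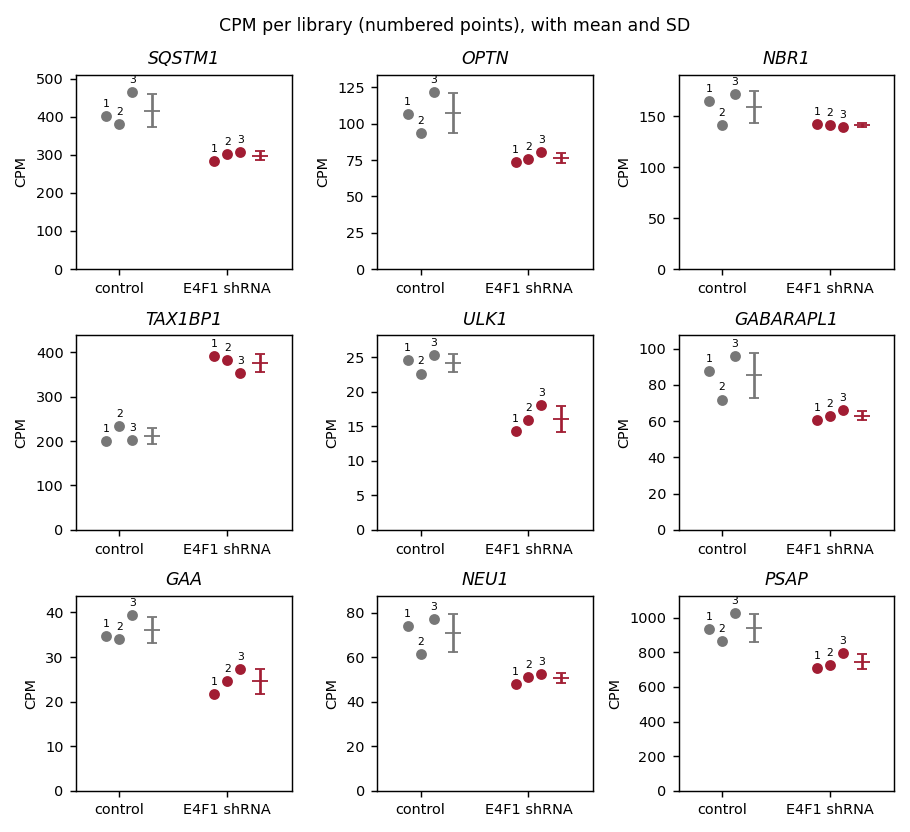
Points are CPM of single libraries, numbered by replicate, with the mean and SD of 3 libraries beside them, for the 4 receptors, ULK1, GABARAPL1 and 3 lysosomal genes. The groups are apart in every panel but that of NBR1, and TAX1BP1 is the only panel in which the E4F1 shRNA libraries are the higher ones.

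Of the kinases and partners that start autophagy, ULK1 fell. ULK1 (ENSG00000177169.9, GRCh38 chromosome 12, 131894651 to 131923167, plus strand), the kinase that receives signals from mTORC1 and AMPK, had 24.6, 22.7 and 25.3 CPM in control libraries 1 to 3 and 14.3, 16.0 and 18.1 CPM in E4F1 shRNA libraries 1 to 3. The controls lay close together and all E4F1 shRNA libraries were below them (log2 −0.58, SE 0.095, edgeR adjusted p = 0.000227). Its paralogue ULK2 had 4.41, 5.31 and 3.27 CPM against 3.8, 4.69 and 5.12 CPM. The groups overlapped for ULK2, whose count was the lowest of the autophagy members, and the interval of its change was wide (log2 0.07, 95% interval −0.322 to 0.453, edgeR adjusted p = 0.823). ATG13, the adaptor of the kinase complex, went from 94.0 ± 5.88 to 85.1 ± 3.83 CPM and did not pass (log2 −0.14, SE 0.061, edgeR adjusted p = 0.0887). Without control 2 it did (adjusted p = 0.0203).

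In the class III phosphatidylinositol 3-kinase complex UVRAG and BECN1 fell and ATG14 did not pass the test. UVRAG, which marks the complex of endosomes and late autophagosomes, had 29.4, 28.5 and 27.9 CPM against 24.5, 21.8 and 20.3 CPM, with no overlap (log2 −0.37, SE 0.083, edgeR adjusted p = 0.00319). BECN1, the scaffold common to both forms of the complex, had 77.1, 76.8 and 85.7 CPM against 67.6, 69.4 and 68.3 CPM. All E4F1 shRNA libraries of BECN1 lay below all controls (log2 −0.22, SE 0.061, edgeR adjusted p = 0.0105). The call of BECN1 was lost without control 3 (adjusted p = 0.0605) or E4F1 shRNA library 1 (adjusted p = 0.0556). ATG14, which directs the complex to the forming autophagosome, went from 47.3 ± 3.57 to 49.4 ± 1.45 CPM (log2 0.06, 95% interval −0.079 to 0.209, edgeR adjusted p = 0.517).

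The genes of membrane growth went both ways. ATG2A, a lipid transfer protein, had 28.7, 26.7 and 32.4 CPM against 17.1, 22.9 and 22.8 CPM, and E4F1 shRNA library 1 was the lowest (log2 −0.48, SE 0.10, edgeR adjusted p = 0.00245). WIPI2, which binds the lipid mark and recruits the conjugating enzymes, had 169, 173 and 189 CPM against 145, 146 and 149 CPM, with the E4F1 shRNA libraries close together below the controls (log2 −0.27, SE 0.055, edgeR adjusted p = 0.00139). WIPI1 went from 26.3 ± 5.25 to 21.4 ± 2.06 CPM. The groups overlapped for WIPI1 through control 2 (20.6 CPM), its test was not passed (log2 −0.30, SE 0.12, edgeR adjusted p = 0.0673), and without control 2 it was (log2 −0.44, adjusted p = 0.000521). ATG9A, in contrast, rose: 41.7, 48.1 and 40.5 CPM against 49.4, 52.3 and 53.4 CPM. Its lowest E4F1 shRNA library was just above its highest control, number 2 (log2 0.25, SE 0.072, edgeR adjusted p = 0.0156). The call of ATG9A was lost without control 1 (adjusted p = 0.0594), control 3 (0.0674), E4F1 shRNA library 2 (0.0641) or E4F1 shRNA library 3 (0.0562), and 38.8% of its exonic bases lie in exons of another gene on the same strand, where reads are assigned to neither gene.

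The conjugation enzymes, which work like the ubiquitin system to attach ATG8 to lipid, had the median nearest to 0 of all roles. ATG3, the E2-like enzyme, rose: 83.0, 79.8 and 79.8 CPM against 106, 98.7 and 92.8 CPM. All E4F1 shRNA libraries of ATG3 lay above all controls (log2 0.29, SE 0.060, edgeR adjusted p = 0.00152). For the other 5 the groups overlapped and none passed. ATG5 went from 54.7 ± 3.57 to 56.5 ± 2.61 CPM (log2 0.05, 95% interval −0.092 to 0.188), and ATG7, the E1-like enzyme, from 27.0 ± 1.95 to 26.2 ± 1.88 CPM (log2 −0.04, 95% interval −0.215 to 0.133). ATG12 had log2 −0.03, ATG16L1 log2 0.05 and the protease gene ATG4B log2 −0.07, with edgeR adjusted p = 0.711, 0.613 and 0.521. With a GC-content offset ATG12 was called lower (log2 −0.17, adjusted p = 0.0311). The median log2 fold change of the 6 was 0.007.

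Of the 4 ATG8 genes GABARAPL1 and GABARAP fell and the others did not pass the test. GABARAPL1 had 87.9, 71.9 and 95.98 CPM against 60.5, 62.9 and 65.9 CPM, with control 3 high and control 2 nearest to the E4F1 shRNA libraries (log2 −0.43, SE 0.083, edgeR adjusted p = 0.000894). GABARAP had 5.81, 6.48 and 6.22 CPM against 4.24, 4.21 and 5.05 CPM (log2 −0.46, SE 0.14, edgeR adjusted p = 0.0235). The counts of GABARAP are a part of its reads, since 30.5% of its exonic bases lie in exons of another gene on the same strand. Its call was lost without control 2 (adjusted p = 0.0538), control 3 (0.0569), E4F1 shRNA library 1 (0.0941) or E4F1 shRNA library 2 (0.0969) and with DESeq2 (0.0772). MAP1LC3B, the gene of the LC3 protein used to follow autophagosomes, had 158, 136 and 167 CPM against 137, 140.5 and 132 CPM. Control 2 of MAP1LC3B lay inside the range of the E4F1 shRNA libraries and the test was not passed (log2 −0.17, SE 0.066, edgeR adjusted p = 0.0622), while without control 2 it was (log2 −0.24, adjusted p = 0.00137). GABARAPL2 went from 86.0 ± 5.84 to 77.8 ± 2.49 CPM (log2 −0.14, SE 0.062, edgeR adjusted p = 0.0885), while without control 2 its adjusted p was 0.014 and with a GC-content offset 0.0237.

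Of the 19 lysosomal genes 12 were lower, none was higher and 7 did not pass the test. Over all genes tested 14.4% were lower. With a GC-content offset 8 of the 19 were lower and none higher, and 1947 of 15720 genes were lower over all genes. Of the lysosomal roles, the glycosidases with the activator protein had the lowest median, −0.337. GAA, the acid alpha-glucosidase that breaks down glycogen in the lysosome and whose promoter carries the CLEAR core at 2 places (ENSG00000171298.12, GRCh38 chromosome 17, 80101556 to 80119879, plus strand), had 34.7, 34.0 and 39.5 CPM in control libraries 1 to 3 and 21.8, 24.5 and 27.2 CPM in E4F1 shRNA libraries 1 to 3. No library of the E4F1 shRNA group reached a control (log2 −0.56, SE 0.088, edgeR adjusted p = 0.000183). NEU1, the sialidase, had 74.1, 61.4 and 77.4 CPM against 48.1, 50.9 and 52.6 CPM, and again control 2 was the lowest control while all E4F1 shRNA libraries were below it (log2 −0.49, SE 0.078, edgeR adjusted p = 0.000192). HEXA, the alpha subunit of beta-hexosaminidase, had 96.6, 80.0 and 92.4 CPM against 72.5, 71.5 and 76.3 CPM (log2 −0.29, SE 0.068, edgeR adjusted p = 0.00446). PSAP, the precursor of the saposins that present lipids to hydrolases, had the most reads of the members: 933, 866 and 1025 CPM in control libraries 1 to 3 and 712, 729 and 796 CPM in E4F1 shRNA libraries 1 to 3. The groups of PSAP were apart and control 3 was the highest (log2 −0.34, SE 0.064, edgeR adjusted p = 0.000836). GLA, the alpha-galactosidase, was the exception in this group, with 38.2 ± 1.86 to 37.9 ± 0.615 CPM and overlapping libraries (log2 −0.01, 95% interval −0.15 to 0.133, edgeR adjusted p = 0.94).

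Of 6 cathepsin and other protease genes 4 fell, and CTSZ and TPP1 did not pass. CTSD, the main aspartic protease, had 39.6, 40.8 and 43.7 CPM against 30.2, 32.8 and 32.2 CPM, all E4F1 shRNA libraries being below all controls (log2 −0.38, SE 0.070, edgeR adjusted p = 0.000678). These counts leave out reads in the 41.7% of CTSD exonic bases that another gene on the same strand also covers. The cysteine protease gene CTSB had 439.8, 407 and 469 CPM against 391, 374 and 373 CPM (log2 −0.21, SE 0.057, edgeR adjusted p = 0.0104), and its call was lost without control 1 (adjusted p = 0.0545), control 3 (0.0586) or E4F1 shRNA library 2 (0.0609). CTSL, another cysteine protease gene, had 153, 153 and 156 CPM against 136, 137 and 134 CPM. Both groups of CTSL were tight and apart (log2 −0.18, SE 0.050, edgeR adjusted p = 0.0106), although without E4F1 shRNA library 1 the adjusted p was 0.0518. CTSA, the protective protein of NEU1 and of beta-galactosidase, had 139, 136 and 142 CPM against 126, 118 and 126 CPM (log2 −0.18, SE 0.053, edgeR adjusted p = 0.0184). The call of CTSA was lost without control 1 (0.074), control 3 (0.0609), E4F1 shRNA library 1 (0.0501) or E4F1 shRNA library 2 (0.124), and with a GC-content offset (0.309). That call was also lost without a low-count filter (edgeR adjusted p = 0.0569). CTSZ (log2 −0.09) and TPP1 (log2 −0.10) had overlapping groups, with edgeR adjusted p = 0.22 and 0.216.

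The membrane proteins LAMP1 and MCOLN1 fell by the test and LAMP2 did not pass. LAMP1, a main glycoprotein of the lysosomal membrane, had 478, 486 and 496 CPM in control libraries 1 to 3 and 442, 434 and 440.3 CPM in E4F1 shRNA libraries 1 to 3. The change was small beside the others, but each group was tight and they did not overlap (log2 −0.15, SE 0.049, edgeR adjusted p = 0.0286). The call of LAMP1 was lost without control 1 (adjusted p = 0.0774), control 3 (0.0906), E4F1 shRNA library 1 (0.0908) or E4F1 shRNA library 2 (0.116), with a GC-content offset (0.231) and without a low-count filter (0.0878). LAMP2, the partner glycoprotein needed for fusion with autophagosomes, had 197, 184 and 195 CPM against 192, 202 and 204 CPM, with overlap (log2 0.06, 95% interval −0.055 to 0.166, edgeR adjusted p = 0.465). MCOLN1, the lysosomal calcium channel upstream of TFEB release, had 8.88, 10.3 and 8.08 CPM against 7.41, 7.54 and 5.36 CPM. Its level was low and E4F1 shRNA library 3 stood below the other two (log2 −0.43, SE 0.14, edgeR adjusted p = 0.0346), and the call was lost without that library (adjusted p = 0.165), without control 1 (0.0818) or control 2 (0.112), with DESeq2 (0.064) and with a GC-content offset (0.18).

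Of the 5 proton pump (V-ATPase) genes, ATP6V1B2 and ATP6AP1 fell. ATP6V1B2, a subunit of the ATP-hydrolysing sector, had 149.7, 131 and 148 CPM against 119.9, 123 and 118 CPM (log2 −0.25, SE 0.059, edgeR adjusted p = 0.00437). ATP6AP1, an accessory subunit, had 109.5, 106 and 120.2 CPM against 95.2, 96.4 and 99.1 CPM (log2 −0.21, SE 0.058, edgeR adjusted p = 0.0136). Both had E4F1 shRNA libraries below every control, but ATP6AP1 lost its call without control 3 (adjusted p = 0.0786), E4F1 shRNA library 1 (0.0716) or E4F1 shRNA library 2 (0.0669) and with a GC-content offset (0.201). For ATP6V1A (log2 −0.02, 95% interval −0.157 to 0.128), ATP6V1H (log2 −0.04, 95% interval −0.192 to 0.111) and ATP6V0D1 (log2 0.02, 95% interval −0.117 to 0.163) the groups overlapped and the tests were not passed (edgeR adjusted p = 0.895, 0.714 and 0.828). Of the 5 lysosomal genes found to carry the CLEAR core, among the 12 whose promoters were searched, ATP6V0D1 was the one not called lower. Those of the 12 without the core were CTSD, CTSL, NEU1 and ATP6AP1, also lower, and CTSZ, TPP1 and GLA, not called.

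The mRNAs of the MiT/TFE factors themselves did not pass the test. TFE3 was the most abundant per length, with 152, 156 and 168 CPM against 154, 150.0 and 154 CPM (log2 −0.06, 95% interval −0.17 to 0.057, edgeR adjusted p = 0.466). MITF had 52.4, 49.0 and 61.2 CPM against 50.8, 53.2 and 47.6 CPM (log2 −0.10, 95% interval −0.265 to 0.065, 0.366). TFEB had 4.27, 4.94 and 3.79 CPM against 3.49, 5.7 and 4.57 CPM (log2 0.08, 95% interval −0.303 to 0.469, 0.771). The groups overlapped for all 3 genes, and the low counts of TFEB leave a wide interval. The data are of mRNA and do not show where these proteins were in the cell.

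**Figure D3:**
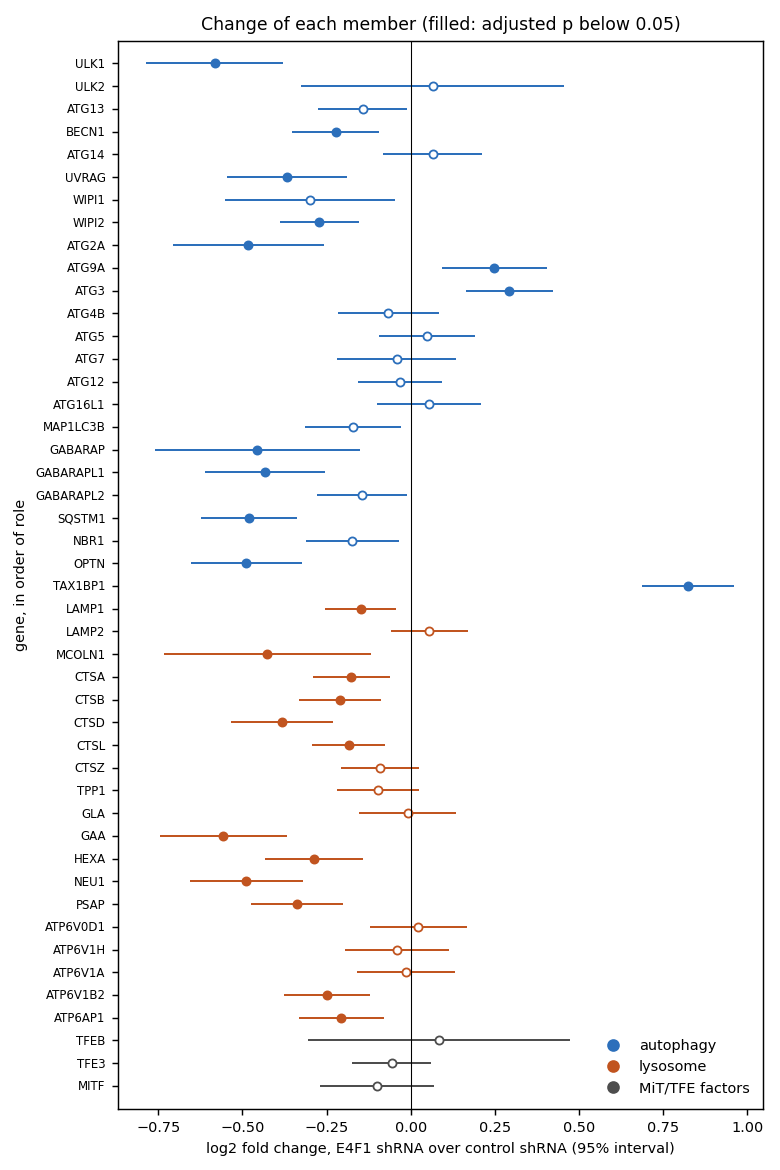
Points are the log2 fold change of each of the 46 genes, E4F1 shRNA over control shRNA, with the 95% interval of the fit, in order of role and coloured by class, and filled where adjusted p was below 0.05. The filled lysosomal points all lie to the left of 0, and TAX1BP1 stands alone on the right at 0.82.

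Autophagy and lysosomal genes were set side by side. Of 24 autophagy genes 9 were lower (37.5%) and 3 higher (12.5%), with a median of −0.158 and a range from −0.582 to 0.82. Of 19 lysosomal genes 12 were lower (63.2%) and none higher, with a median of −0.184 and a range from −0.557 to 0.055. Over all genes tested 14.4% were called lower and 14.4% higher, and the share of autophagy genes called higher was near the latter. Relative to the 6 libraries, the mean log2 CPM of the autophagy genes was 0.06, 0.029 and 0.11 in controls 1 to 3 and −0.101, −0.064 and −0.034 in E4F1 shRNA libraries 1 to 3. For the lysosomal genes it was 0.108, 0.037 and 0.155 in controls and −0.113, −0.098 and −0.089 in E4F1 shRNA libraries. Controls were above all E4F1 shRNA libraries in both classes, and control 2 was the lowest control in both. With a GC-content offset the order of the classes turned: 12 autophagy genes (50%) and 8 lysosomal genes (42.1%) were lower, with medians of −0.188 and −0.112. Over all genes 1947 of 15720 were called lower with that offset. The order of the medians also turned without control 2, at −0.216 and −0.184. The difference between the classes was not tested, because the genes were chosen with results of these data known.

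**Figure D4:**
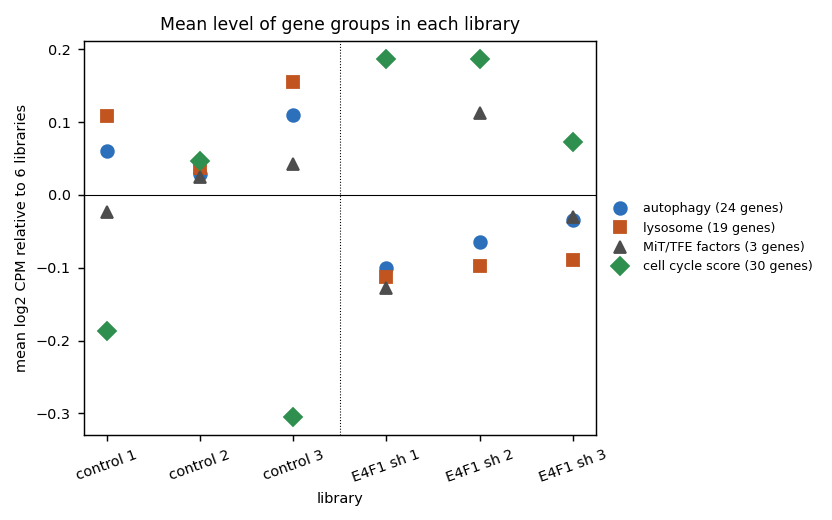
Points are the mean log2 CPM of the autophagy, lysosomal, MiT/TFE and cell cycle genes in each library, relative to the mean over the 6 libraries. The autophagy and lysosomal means are above 0 in the controls and below 0 in the E4F1 shRNA libraries, and the cell cycle mean runs the other way, with control 2 between.

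Most calls were lost when the cell cycle score entered the fit. With the score as a covariate in the fit, 4 of the 24 called genes kept their call: TAX1BP1 (log2 0.62, edgeR adjusted p = 3.55e-06), SQSTM1 (log2 −0.26, 0.0431), UVRAG (log2 −0.43, 0.0392) and MCOLN1 (log2 −0.80, 0.0128). The other 20 were not called, among them ULK1 (log2 −0.39, 0.0896), GAA (log2 −0.35, 0.089), CTSD (log2 −0.31, 0.0861), ATG3 (log2 0.26, 0.101) and PSAP (log2 −0.12, 0.421). Over all genes the number of calls went from 4550 to 916 with the same covariate. The score itself separated the groups, narrowly, at 0.072 in the lowest E4F1 shRNA library and 0.047 in the highest control. Its 30 genes were chosen with earlier results known, and all had a log2 fold change above 0, with 20 called higher. Both precision and estimates changed with the covariate. The standard error of ULK1 went from 0.095 to 0.137. For GABARAPL1 it went from 0.083 to 0.087, while the log2 fold change went from −0.43 to −0.08. The median log2 fold change of the 46 genes went from −0.16 to −0.074. The part of cell cycle state in the falls cannot be told apart from that of the shRNA in 6 libraries. Without control 2, whose score was nearest to the E4F1 shRNA group, 27 of the 46 genes were called, 24 lower and 3 higher. Calls over all genes rose as well without control 2, to 5370 of 16092 from 4550 of 15765 with all 6 libraries.

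**Figure D5:**
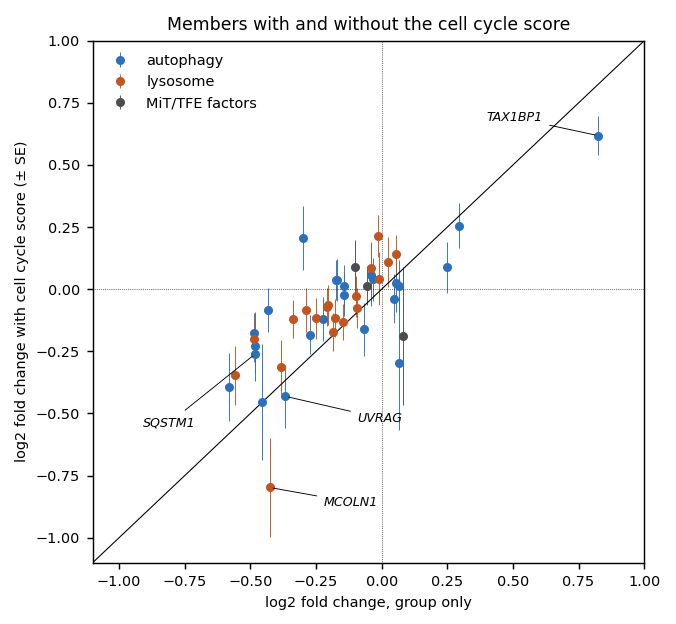
Each point is a gene, with its log2 fold change from the fit on group alone on the horizontal axis and from the fit with the cell cycle score on the vertical axis, with the SE of the latter. Of the 36 genes with a log2 fold change below 0, most lie above the diagonal line of equal values, nearer to 0, and the 4 genes that stayed called are named.

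Levels were compared between genes as CPM per kilobase of exon in control cells. PSAP was first with 291, followed by CTSZ with 97.6, LAMP1 with 84.8, CTSL with 65.2, CTSB with 59.1 and SQSTM1 with 54.3. The first 5 kept this order in E4F1 shRNA cells, at 230, 91.7, 76.4, 57.4 and 51.1. SQSTM1 went from rank 6 to rank 7 (38.9), with TAX1BP1 now above it (40.9). TFE3 stood at 37.1, against 7.55 for MITF and 0.767 for TFEB. The union of all annotated exons was used as length, so levels of genes with many unused exons are understated. That length also includes bases shared with another gene on the same strand, where reads were not counted. The levels and ranks of CTSD (41.7% of bases shared), ATG9A (38.8%) and GABARAP (30.5%) can thus be too low.

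Companion genes of the same pathways were taken from lists outside the 46, and their shares are read beside the 14.4% of all genes called lower and the 14.4% called higher. Of 36 other autophagy genes tested, 11 were lower and 4 higher (30.6% and 11.1%), with a median of −0.065, so that the share called higher was no larger than over all genes. FYCO1, an adaptor that moves autophagosomes along microtubules, rose: 22.6, 23.3 and 24.9 CPM against 48.1, 44.0 and 48.1 CPM. Its groups were far apart (log2 0.99, SE 0.073, edgeR adjusted p = 4.95e-08). NRBF2, a partner of the ATG14 complex, also rose (38.8 ± 1.67 to 48.4 ± 1.5 CPM, log2 0.32, SE 0.065, edgeR adjusted p = 0.00158). TOLLIP (log2 −0.58), the fusion adaptor gene PLEKHM1 (log2 −0.57) and the WIPI relative WDR45B (log2 −0.30) fell.

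Of 61 other lysosomal genes tested, 19 were lower and 11 higher (31.1% and 18%), with a median of −0.14. The share called higher was near that of all genes, 14.4%. SUMF1, which activates the sulfatases, had 11.8, 11.7 and 11.4 CPM against 6.17, 5.46 and 5.85 CPM. The groups did not overlap (log2 −1.001, SE 0.11, edgeR adjusted p = 7.21e-06). LGMN, the asparaginyl protease legumain, fell from 66.4 ± 4.84 to 43.3 ± 1.79 CPM (log2 −0.62, SE 0.068, edgeR adjusted p = 5.21e-06). AGA, the aspartylglucosaminidase (log2 0.53), LIPA, the acid lipase (log2 0.50), and IDS, the iduronate sulfatase (log2 0.39), rose, each without overlap. Of 14 other V-ATPase genes tested, 4 were lower (28.6%) and 1 higher (7.14%), again against 14.4% each way over all genes. ATP6V1G1, a stalk subunit, had 48.1, 47.7 and 46.8 CPM against 72.2, 73.8 and 67.97 CPM and rose (log2 0.58, SE 0.061, edgeR adjusted p = 2.46e-06), while ATP6V1E1 (log2 −0.26), ATP6V1F (log2 −0.26), ATP6V1D (log2 −0.22) and ATP6V0E1 (log2 −0.18) fell. These falls were small. ATP6V1F lost its call without control 1 (adjusted p = 0.116), control 3 (0.135) or E4F1 shRNA library 1 (0.0521), 2 (0.132) or 3 (0.0907) and with a GC-content offset (0.0962). The same libraries ended the calls of ATP6V1D (0.0857, 0.0994, 0.053, 0.0564 and 0.0867 in that order) and ATP6V0E1 (0.149, 0.176, 0.138, 0.115 and 0.088). With DESeq2, ATP6V1F (adjusted p = 0.0646) and ATP6V0E1 (0.0589) were not called, and neither was called by edgeR without a low-count filter (0.0513 and 0.0655). Of 15 genes that control or report MiT/TFE activity, 6 were lower (40%) and 1 higher (6.67%), against 14.4% of all genes each way. FLCN, the folliculin gene, whose product lets mTORC1 hold TFEB and TFE3 in check, went from 30.9 ± 0.892 to 24.1 ± 2.45 CPM (log2 −0.36, SE 0.083, edgeR adjusted p = 0.00336). GPNMB, a known target of these factors (log2 −0.38), and the Ragulator genes LAMTOR1 (log2 −0.24) and LAMTOR2 (log2 −0.30) fell too, and PPARGC1A, at 1.32 CPM in control, rose (log2 0.76). LAMTOR1 lost its call without E4F1 shRNA library 1 (adjusted p = 0.0797) and with a GC-content offset (0.116). LAMTOR2 lost it without control 3 (0.0882) or E4F1 shRNA library 1 (0.0529), 2 (0.0523) or 3 (0.0621) and with the GC-content offset (0.0641), and PPARGC1A without control 1 (0.0666), control 3 (0.0635) or E4F1 shRNA library 1 (0.127). PPARGC1A also lost its call with DESeq2 (adjusted p = 0.0813) and with the replicate block and GC-content offset together (edgeR adjusted p = 0.0574).

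The cell cycle covariate was applied as well to the 20 named companions, which had been picked by adjusted p in the fit without it. Over all genes 916 of 15765 were called with the covariate, against 4550 without it. Of the 20 companions, 8 kept their call: FYCO1, NRBF2, WDR45B, LGMN, IDS, LIPA, SUMF1 and ATP6V1G1. TOLLIP (log2 −0.22, edgeR adjusted p = 0.363) and PLEKHM1 (log2 −0.15, 0.539) were among the 12 that did not. FLCN was at log2 −0.25 (0.264), LAMTOR1 at −0.18 (0.315) and LAMTOR2 at −0.27 (0.279). AGA (0.112), PPARGC1A (0.508), ATP6V1D (0.877), ATP6V1E1 (0.383) and ATP6V1F (0.824) were not called either, and ATP6V0E1 and GPNMB were near 0, at log2 0.003 and 0.012.

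The CLEAR core was set beside the changes. Of the 6 members with the core, LAMP1, MCOLN1, CTSA and GAA were lower, ATG3 was higher and ATP6V0D1 was not called. With a GC-content offset LAMP1, MCOLN1 and CTSA lost their call (adjusted p = 0.231, 0.18 and 0.309) and GAA and ATG3 kept theirs. Over all 229 tested genes with the core in a RefSeq promoter, 18.8% were lower and 15.7% higher, against 15.1% and 16.4% of the 10896 tested genes with a RefSeq promoter. With the members left out, the 223 other genes with the core were lower in 17.5% and higher in 15.7% of cases. The share called lower among genes with the core stood a little above that of tested genes with a RefSeq promoter. This difference was not tested.

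The heptamer CTTATCT, searched on the transcript strand of 3′ untranslated regions because earlier results of these data had pointed to it, was in 1 of the 46 members, TPP1, and in 9.82% of tested genes with an annotated 3′ untranslated region (transcript with the longest coding sequence). Neither TAX1BP1, ATG3 nor ATG9A held it there. Among the companions, 7 of the 16 genes with the heptamer were higher and 2 lower, against 10 and 38 of the 108 without it. Over all genes tested, with or without it, 14.4% were higher and 14.4% lower. Of the 7 named companions that rose, 4 held it, FYCO1, NRBF2, LIPA and IDS, and of the 13 that fell none did. The heptamer had been tied to rises in these same data, and the named companions were picked by adjusted p. These counts are therefore a description and no independent support. Sites of the heptamer in these 4 genes and in TPP1 are given below in 25 bases, with the heptamer in capitals, the first of 2 sites for IDS and TPP1.
FYCO1: caattcattCTTATCTgccaaagaa
NRBF2: gttatttttCTTATCTtcagggtta
LIPA: atagttctaCTTATCTgagaagcaa
IDS: ccacaaagaCTTATCTggaggtgag
TPP1: tgcagacagCTTATCTccctaaccc
TPP1, with 2 sites, had 99.0 ± 3.65 to 92.5 ± 3.69 CPM and was not called (log2 −0.10, 95% interval −0.216 to 0.022).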

How the data were processed

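Polyadenylated RNA was measured in 6 libraries, 3 per group. The values are whole-number counts of reads per gene, deposited as STAR gene count tables; STAR 2.5.1b, bcl2fastq 2.20 and GRCh38 are named per the submitters' processing notes, and no source used here gives the annotation release. The summary lines for reads not assigned to a single gene (27% to 31.7% of the reads in the tables) were left out. The reverse-strand count column was used. Of 58219 gene IDs, 57881 matched GENCODE release 29, which gave symbols and positions. Depth was 14947085 to 16892139 reads in genes, and counting error is part of each spread.

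Genes were filtered with filterByExpr by group, scaled by TMM and tested two-sided with the edgeR 4.0.16 quasi-likelihood test (R 4.3.3), with Benjamini-Hochberg adjustment over 15765 genes and a threshold of 0.05. The SE is the log2 fold change divided by the square root of F. The scripts were tested on simulated data. Alternatives were DESeq2 1.42.0 (size factors and Wald test), limma 3.58.1 (voom), library totals, no filter, a minimum of 1 CPM in 3 libraries, a replicate block, a GC-content offset, counts ignoring strand, a covariate for the cell cycle score, and each library left out in turn. Replicate libraries of a group differed by more than counting noise.

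The members, lists, motifs and score were chosen with earlier results of these data known. Values in all libraries are given for the called members, the MiT/TFE factors, LAMP1, LAMP2, MAP1LC3B, BECN1 and ULK2. Of each companion list up to 5 genes with the smallest adjusted p are named, some by mean or fold change alone. NBR1, WIPI1 and the other members that did not pass were added to account for every member.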

Additional observations from a re-analysis of the deposited data

How the results depend on the processing

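Of the 24 called genes, none changed direction under any of the 17 alternatives, and 15 kept their call in every alternative other than the cell cycle covariate. Of these 15, the genes UVRAG, SQSTM1 and TAX1BP1 kept it with the covariate too. Leaving out single libraries gave 17 to 27 called members, 9 to 16 autophagy genes, 8 to 11 lysosomal genes and 3031 to 5370 of all genes, the lowest count over all genes coming without E4F1 shRNA library 2. Adding the cell cycle covariate, these counts were 4, 3, 1 and 916. The GC-content offset gave 15 autophagy and 8 lysosomal calls, and 3896 over all genes. DESeq2's Wald test gave 22 called members, and 3728 calls over all genes. Same-numbered pools correlated at 0.043, 0.086 and 0.171 in their deviations from the group means. E4F1 shRNA libraries 2 and 3 each correlated best with the control of the same number, and library 1 with control 2 (0.149). The labels do not say that same-numbered pools belong together, and the numbers were not taken as pairs. With the replicate as a block 27 members (15 autophagy, 12 lysosomal) and 4865 of all genes were called.

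Direction turned 37 times over 17 members, none of them called. Under the covariate this held for ULK2 (−0.298), WIPI1 (0.206), ATG5 (−0.038), ATG7 (0.057), ATG12 (0.04), MAP1LC3B (0.037), GABARAPL2 (0.014), NBR1 (0.036), GLA (0.042), ATP6V1H (0.086), ATP6V1A (0.213), TFEB (−0.188), TFE3 (0.014) and MITF (0.09), and for the companions ATP6V0E1 (0.003) and GPNMB (0.012). With the GC-content offset, without and with the replicate block, it held for ATG4B (0.052 and 0.052), ATG5 (−0.075 and −0.074), LAMP2 (−0.053 and −0.053), CTSZ (0.016 and 0.014) and TFE3 (0.068 and 0.068). GLA was at 0.004 without a filter. Over the libraries left out in turn, the sign also varied for ULK2 (−0.102 to 0.254), ATG7 (−0.096 to 0.01), ATG12 (−0.059 to 0.009), GLA (−0.032 to 0.041), ATP6V1H (−0.103 to 0.019), ATP6V1A (−0.091 to 0.049) and TFEB (−0.102 to 0.253). The cause of these turns was not tested. GABARAP was not tested among counts ignoring strand. Low counts limit ULK2, TFEB, GABARAP and MCOLN1 most, which had the fewest reads. The count of GABARAP also leaves out reads in the 30.5% of its exonic bases shared with another gene on the same strand.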
